A study of Homo sapiens with 9 samples.

Results

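Small Cajal body RNAs (scaRNAs) of the box C/D type and of the mixed C/D-H/ACA type were measured in nuclear RNA of U2OS cells, a human bone osteosarcoma line, after knockdown of 2 proteins of the H/ACA complex. The members were fixed by name as 8 genes, of 58425 genes with matched transcripts and 18444 that passed the count filter. They comprise 4 C/D scaRNAs (SCARNA2, SCARNA7, SCARNA9 and SCARNA17) and 4 mixed scaRNAs (SCARNA5, SCARNA6, SCARNA10 and SCARNA12). All 8 passed the filter. The cells received 15 nM of siControl, siDyskerin or siGAR1 with RNAiMAX and were harvested 48 hours later, and each of the 3 groups has 3 biological replicates, giving 9 libraries. siDyskerin targets DKC1, which encodes the pseudouridine synthase dyskerin, and siGAR1 targets GAR1, another core protein of the complex. The study lists siControl as a Qiagen siRNA and the siRNAs against dyskerin and GAR1 as Dharmacon products, so supplier differs together with target. No allele and no other agent differs between the groups. All groups are the same cell line, and all libraries are rRNA-depleted total nuclear RNA. In such bulk samples, fewer cells carrying an RNA and less RNA per cell cannot be told apart.

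scaRNAs are noncoding RNAs of Cajal bodies that guide the modification of spliceosomal snRNAs by base pairing. A C/D RNA is bound by fibrillarin, NOP56, NOP58 and SNU13 and guides ribose methylation, whereas an H/ACA RNA is bound by dyskerin, GAR1, NHP2 and NOP10 and guides pseudouridylation. Mixed scaRNAs carry both kinds of domain, so that proteins of both complexes are part of their particles. Dyskerin, NHP2 and NOP10 are known to be needed for H/ACA RNAs to accumulate, and GAR1 joins the particle last. Most human scaRNAs are cut out of introns, and SCARNA2 and SCARNA17 are known as genes with their own promoters.

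The following sequences show the C and D boxes, as transcript sequence from GENCODE 44 on GRCh38. The C box letters TGATGA and the last CTGA (D box letters) are in capitals. C/D and mixed RNAs can both carry these boxes, and the H/ACA part inside the mixed RNAs was neither searched nor marked. Among the mixed RNAs, SCARNA5 and SCARNA6, SCARNA10 and SCARNA12 begin with a C box and end with a D box, and the H/ACA part lies in between. SCARNA5 (chr2:233275727-233276002, + strand) and SCARNA6 (chr2:233288676-233288940, + strand) are shown whole because they are the most alike of the 8, with 61.8% identity over 283 aligned columns.
SCARNA5: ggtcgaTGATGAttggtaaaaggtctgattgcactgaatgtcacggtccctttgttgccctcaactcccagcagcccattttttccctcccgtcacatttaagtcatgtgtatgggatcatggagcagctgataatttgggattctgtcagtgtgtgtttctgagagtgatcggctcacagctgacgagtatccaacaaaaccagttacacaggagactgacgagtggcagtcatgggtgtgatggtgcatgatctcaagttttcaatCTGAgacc
SCARNA6: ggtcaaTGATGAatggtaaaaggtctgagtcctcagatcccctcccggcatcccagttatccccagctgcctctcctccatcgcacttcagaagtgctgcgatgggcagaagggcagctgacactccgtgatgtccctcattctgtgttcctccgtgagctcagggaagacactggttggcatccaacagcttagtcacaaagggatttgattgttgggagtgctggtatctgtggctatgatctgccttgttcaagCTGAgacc
SCARNA12 (chr12:6967337-6967606, - strand) and both ends of SCARNA10 (chr12:6510222-6510551, + strand, bases 1 to 60 and 271 to 330) have the same layout.
SCARNA12: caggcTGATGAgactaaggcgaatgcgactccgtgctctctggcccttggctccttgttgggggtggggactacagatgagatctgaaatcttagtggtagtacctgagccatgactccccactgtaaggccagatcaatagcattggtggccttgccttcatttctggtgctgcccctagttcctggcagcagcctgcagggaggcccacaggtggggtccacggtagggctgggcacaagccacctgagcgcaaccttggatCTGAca
SCARNA10 start: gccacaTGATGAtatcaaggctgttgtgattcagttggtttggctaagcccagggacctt
SCARNA10 end: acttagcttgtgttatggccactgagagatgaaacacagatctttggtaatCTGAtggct
The C/D RNAs are more varied. SCARNA7 (chr3:160514907-160515236, - strand, bases 1 to 60 and 271 to 330) has both boxes at its ends, SCARNA9 (chr11:93721513-93721865, + strand, bases 1 to 60 and 274 to 353) has C boxes at bases 36 and 291, and SCARNA2 (chr1:109100193-109100612, + strand, bases 341 to 420) has its C box at base 350. SCARNA17 (chr18:49814133-49814276, + strand) has no TGATGA in the annotated 144 bases. Its last CTGA, at base 93, has 48 bases after it and was not counted as an end box.
SCARNA7 start: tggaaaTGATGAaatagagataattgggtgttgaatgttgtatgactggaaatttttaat
SCARNA7 end: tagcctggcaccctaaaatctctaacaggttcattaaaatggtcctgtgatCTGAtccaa
SCARNA9 start: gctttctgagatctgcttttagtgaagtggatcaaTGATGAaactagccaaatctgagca
SCARNA9 end: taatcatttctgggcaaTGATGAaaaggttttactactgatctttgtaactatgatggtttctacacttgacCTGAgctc
SCARNA2 end: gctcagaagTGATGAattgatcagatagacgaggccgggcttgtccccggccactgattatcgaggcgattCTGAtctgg
SCARNA17: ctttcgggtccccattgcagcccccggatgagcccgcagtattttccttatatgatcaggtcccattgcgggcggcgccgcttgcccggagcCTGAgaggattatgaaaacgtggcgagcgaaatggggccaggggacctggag
For comparison, the H/ACA scaRNA SCARNA13, at 275 bases close in length to the mixed RNAs, lacks these end boxes and has the H/ACA end box ACA (capitals) 3 bases before its end.
SCARNA13: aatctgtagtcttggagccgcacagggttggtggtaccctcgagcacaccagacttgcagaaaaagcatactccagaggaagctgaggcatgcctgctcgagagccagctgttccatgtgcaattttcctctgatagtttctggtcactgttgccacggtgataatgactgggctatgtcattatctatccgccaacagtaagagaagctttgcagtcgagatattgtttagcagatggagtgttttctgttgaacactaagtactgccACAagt

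Searched on the transcript strand, TGATGA in the first 12 bases together with CTGA in the last 15 bases occurred in 4 of 4 mixed scaRNAs and in 1 of 4 C/D scaRNAs (SCARNA7). The same pair was present in 18.2% of 313 SNORD transcripts (box C/D snoRNAs), in 0 of 214 SNORA transcripts (box H/ACA snoRNAs), in 0 of 13 H/ACA scaRNAs and in 0.0587% of the 18727 transcripts of 144 to 420 bases. ACA 3 bases before the end was found in 10 of 13 H/ACA scaRNAs and in 0 of the 8 C/D and mixed scaRNAs. A run of at least 4 TG units was found in SCARNA7 (5 units) and SCARNA9 (17 units), in none of the mixed RNAs and in 1.40% of the transcripts of that length. GU-rich repeats and wobble stems are known as Cajal body signals in C/D scaRNAs. A letter match describes the sequence only and was not tested as a site.

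**Figure D1:**
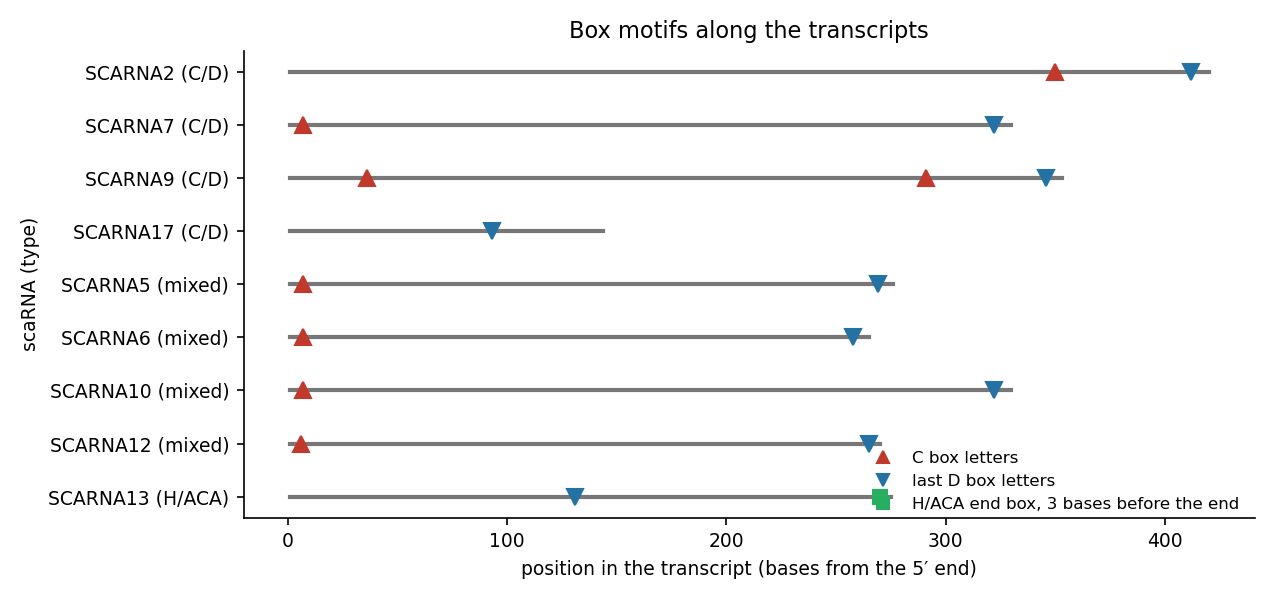
Positions of the C box letters (red triangles), the last D box letters (blue triangles) and the H/ACA end box (green square) along each transcript, drawn to scale in bases from the 5′ end, for the 4 C/D and 4 mixed scaRNAs and for SCARNA13. The 4 mixed RNAs and SCARNA7 have a C box at base 6 or 7 and a D box 2 to 5 bases before the 3′ end, and SCARNA13 has neither at its ends.

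The silenced genes matched the labels. After siDyskerin DKC1 differed by -2.79 on the log2 scale, and after siGAR1 GAR1 differed by -2.68, each in 3 of 3 libraries below the control range (edgeR adjusted p = 1.46e-11 and 6.12e-08). Summed reads were 48838756 to 90698675 per library. Of 7 mesenchymal and bone-lineage markers fixed for U2OS, 6 were above 1 TPM in every library, and COL1A2 was near 0. Of 6 markers of other cell types, EPCAM and CDH1 were above 1 TPM in every library, and the 6 summed to 2.89 to 3.69 TPM in siControl, 3.53 to 4.18 in siDyskerin and 3.75 to 4.59 in siGAR1. The first siGAR1 library stood apart in short RNAs: the median SNORD gene was 0.75 above its siControl mean on a log2 scale in that library, but 0.07 above and 0.03 below (-0.03) in the other siGAR1 libraries.

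**Figure D2:**
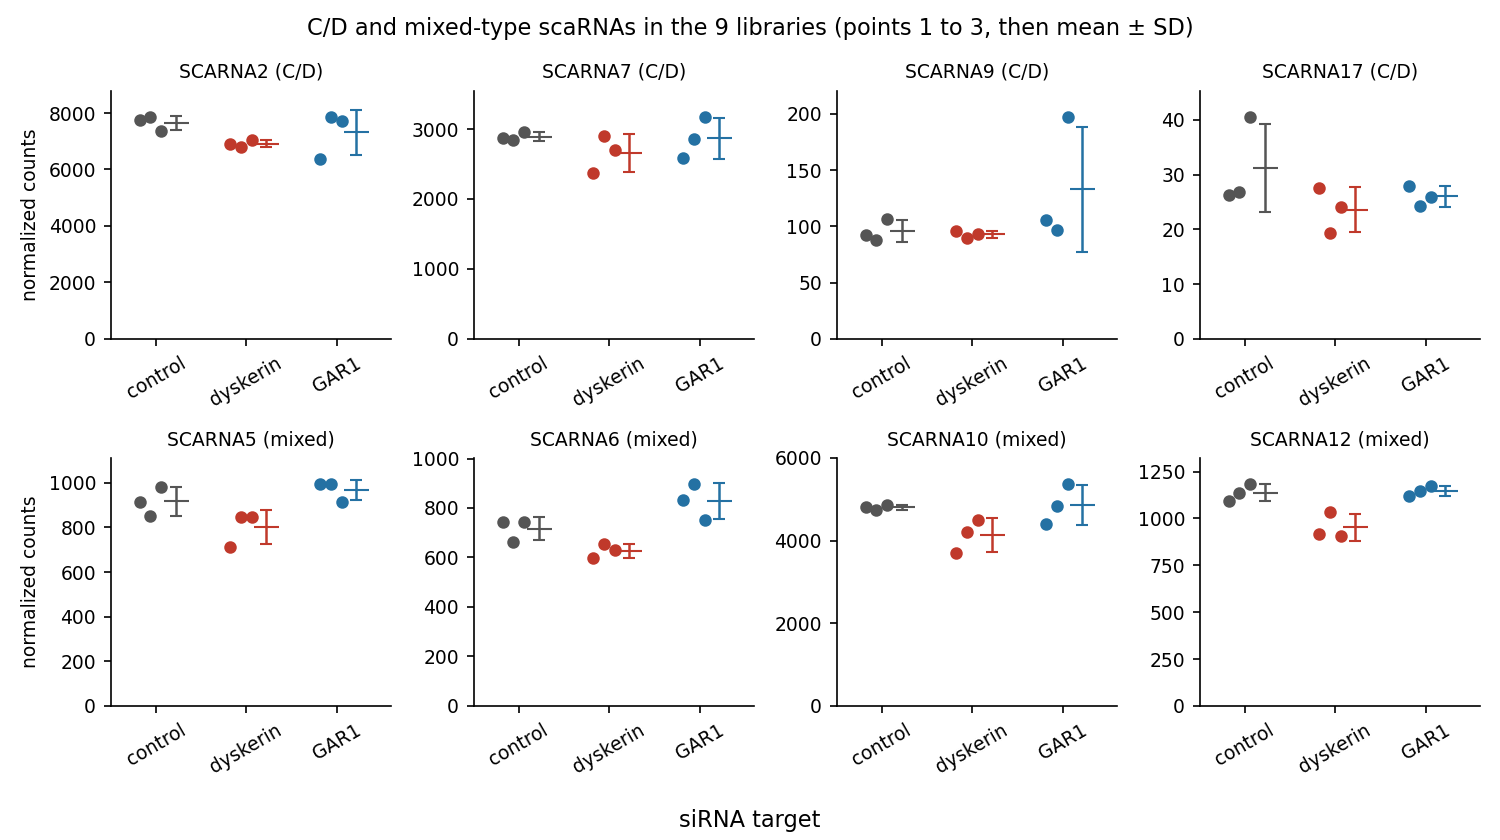
Normalized counts (y axis, from 0) of the 8 scaRNAs in each of the 9 libraries, as points in the order of replicates 1 to 3, with the mean ± SD of each group beside them; top row C/D, bottom row mixed. The siDyskerin points lie below all siControl points for SCARNA2, SCARNA5, SCARNA6, SCARNA10 and SCARNA12, and the siGAR1 points of SCARNA6 lie above.

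In control nuclei the 8 RNAs spanned almost 2 orders of magnitude per length. SCARNA2, a guide for U2 snRNA, was highest at 804 ± 49.9 TPM (a level per length, SD, n = 3). SCARNA10, the mixed guide for U5 snRNA also known as U85, followed at 446 ± 20.8 TPM, and SCARNA7, a guide for U1 snRNA, at 307 ± 3.02 TPM. The mixed RNAs SCARNA12, SCARNA5 and SCARNA6 had 130 ± 6.68, 102 ± 7.34 and 84.6 ± 5.85 TPM. SCARNA17, a guide for U4 snRNA, and SCARNA9, another guide for U2, were lowest at 10.8 ± 2.87 and 10.1 ± 0.755 TPM. Only this last pair overlapped among neighbours in the order: SCARNA17 ranged from 9.03 to 14.1 and SCARNA9 from 9.41 to 10.9 TPM. All values rest on reads of short transcripts, with 4980 to 10014 reads per library for SCARNA2 but 66 to 160 for SCARNA9 and 17 to 34 for SCARNA17.

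Reads of 4 members can also fit overlapping annotation, and the deposited estimates do not show from which transcript such a read came. SCARNA2 lies inside ENSG00000270066, a lncRNA of 427 bases that had only 15 to 35 reads more than SCARNA2 in each library. SCARNA17 lies in an exon of SNHG22, whose transcript had 5.13 to 9.23 times as many reads. SCARNA10 shares 248 bases with lncRNA ENSG00000276232, which had 0.44 to 0.47 times the reads of SCARNA10. SCARNA12 shares 239 bases with a PHB2 transcript that retains an intron and had 1.90 to 2.31 times the reads of SCARNA12. SCARNA9 contains 2 short snoRNA annotations with 0 to 4 reads each. One other gene held a near copy of SCARNA5 (90.1% identity over 213 bases), with 0 reads in every library, and the closest of 2 genes with a near copy of SCARNA9 (97.5% over 80 bases) had 0 to 2 reads. The values of the overlapping RNAs can include any read that came from a longer overlapping transcript.

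After dyskerin knockdown the mixed RNAs were 0.84 to 0.88 times their control level, and none of the 8 RNAs passed an adjusted p under 0.01. SCARNA12, a mixed guide for U5, had 1090, 1136 and 1182 normalized counts (reads scaled to the mean library) in siControl and 917, 1034 and 905 in siDyskerin. Every siDyskerin library lay below every siControl library. The log2 difference was -0.25 (95% interval -0.43 to -0.08, edgeR adjusted p = 0.056). SCARNA10 had 4808, 4751 and 4870 normalized counts in siControl and 3695, 4204 and 4495 in siDyskerin, again without overlap, with a log2 difference of -0.22 (-0.40 to -0.04, edgeR adjusted p = 0.11).

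SCARNA5 had 915, 853 and 983 normalized counts in siControl against 712, 848 and 846 in siDyskerin, a log2 difference of -0.19 (-0.40 to 0.01, edgeR adjusted p = 0.216). SCARNA6 had 742, 663 and 745 against 597, 653 and 632, also -0.19 (-0.39 to 0.01, edgeR adjusted p = 0.225). The groups did not overlap in either, although the nearest libraries of each pair were close.

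Among the C/D RNAs, only SCARNA2 had groups that did not overlap, with 7737, 7856 and 7374 normalized counts in siControl and 6911, 6786 and 7043 in siDyskerin. Its log2 difference was -0.15 (-0.31 to 0.02, edgeR adjusted p = 0.245). SCARNA7 overlapped, with 2873, 2846 and 2963 in siControl and 2368, 2905 and 2703 in siDyskerin and a log2 difference of -0.12 (-0.31 to 0.07). SCARNA9 had 92.7, 87.9 and 106.8 against 95.9, 89.3 and 93.3 (-0.04, -0.55 to 0.47), and SCARNA17 had 26.3, 26.9 and 40.5 against 27.5, 19.3 and 24.0 (-0.38, -0.97 to 0.20). The counts of SCARNA9 and SCARNA17 are low and their intervals wide, and the data do not tell apart the differences inside these intervals.

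In counts, 0 of 8 passed in either direction by edgeR or DESeq2, where 3.32% of all genes passed lower and 3.08% higher, and 2 of 8 (SCARNA10 and SCARNA12) were lower at an unadjusted p under 0.05, beside 13.1% of all genes lower and 13% higher. Groups did not overlap on the lower side in 5 of 8, beside 15.5% of all genes tested, and on the higher side in 0 of 8, beside 16%. All 8 differences were below 0, but 7 of 8 were above 0 when the library factors were taken from SNORD genes, which shifts the median of all genes by 0.26; the differences from that median stay of the same size. No interval of the 8 reached a log2 difference of -1.

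**Figure D3:**
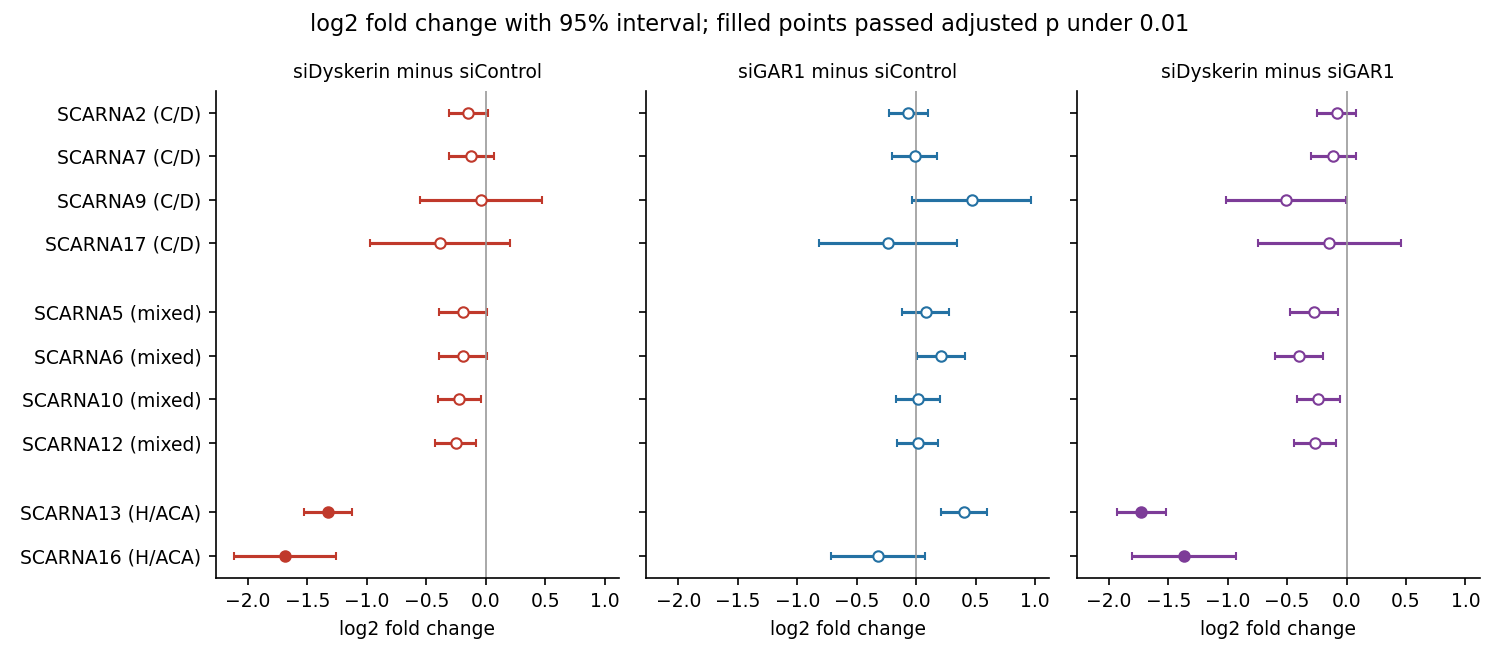
log2 fold change (x axis) with its 95% interval for the 4 C/D and 4 mixed scaRNAs and for the H/ACA scaRNAs SCARNA13 and SCARNA16, in the 3 comparisons; filled points passed an adjusted p under 0.01. No point of the 8 is filled, whereas SCARNA13 (-1.33) and SCARNA16 (-1.68) are filled after dyskerin knockdown; on factors from SNORD genes the points of the 8 shift, and 7 of 8 are above 0 in the first panel.

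The differences of the C/D and mixed RNAs were smaller in size than those of the H/ACA scaRNAs. By type, the median log2 difference after dyskerin knockdown was -0.13 for the C/D RNAs (range -0.38 to -0.04) and -0.21 for the mixed RNAs (-0.25 to -0.19), beside 0.003 for all genes tested. Of the 13 H/ACA scaRNAs listed 8 were tested, as 9 gene entries because SCARNA4 has 2 near-identical ones. The median of the 9 was -1.44, with all 9 below 0 also on factors from SNORD genes, and 4 passed lower: SCARNA13 (-1.33, interval -1.53 to -1.12), SCARNA16 (-1.68), SCARNA20 (-2.23) and SCARNA18 (-3.46). Counts were low in most: apart from SCARNA13 and SCARNA16, the highest siControl mean was 38.8 normalized counts (SCARNA22). SCARNA20 had means of 20.2 in siControl and 4.14 in siDyskerin, and SCARNA18 of 9.14 and 0.763. The highest bound of SCARNA13, -1.12, lay below the lowest bound of any mixed RNA, -0.43. The intervals of SCARNA11 (up to 0.33), SCARNA1 (up to -0.27) and both SCARNA4 entries (up to -0.15 and 0.01) overlapped those of the mixed RNAs. Of 151 SNORA symbols 64 gene entries passed the count filter, and of 296 SNORD symbols 31 did. The 64 SNORA entries had a median of -1.46 and 39 passed lower. The 31 SNORD entries had a median of -0.30 and 0 passed, with 1 at an unadjusted p under 0.05. The intervals of the C/D and of the mixed RNAs overlapped, and the difference between the types, of 4 genes each, was not tested.

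In each library the mixed median, relative to the siControl mean, was -0.33, -0.13 and -0.15 in siDyskerin, and 0.05, 0.07 and 0.06 in siGAR1. The C/D median was -0.15, -0.13 and -0.11 in siDyskerin and -0.15, 0.00 and 0.07 in siGAR1. The H/ACA scaRNA median was -1.63, -0.86 and -1.97 in siDyskerin, and the SNORD median was -0.36, -0.08 and -0.34. The second siDyskerin library thus had the smallest shift in the mixed, H/ACA and SNORD classes alike, although its mixed value was close to that of the third.

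**Figure D4:**
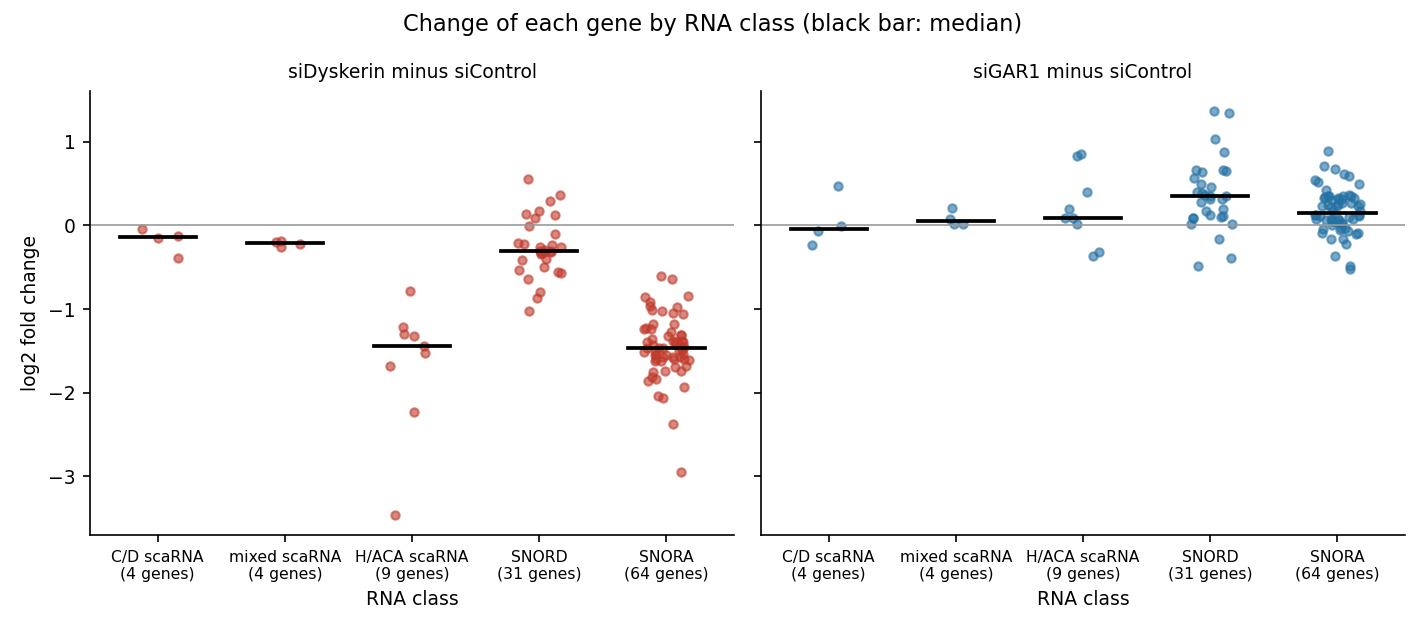
log2 fold change (y axis) of each tested gene of 5 small RNA classes after dyskerin (left) and GAR1 (right) knockdown; black bars are medians. On the left the C/D (-0.13) and mixed (-0.21) medians lie near that of SNORD (-0.30) and far from those of H/ACA scaRNA (-1.44) and SNORA (-1.46); on factors from SNORD genes the first 2 are 0.13 and 0.06, and the H/ACA scaRNA median stays below 0 at -1.23.

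After GAR1 knockdown the 8 RNAs differed from siControl by -0.24 to 0.47 on the log2 scale, and 0 of 8 passed in edgeR or DESeq2. SCARNA6 alone had groups that did not overlap, with 742, 663 and 745 normalized counts in siControl and 834, 896 and 752 in siGAR1. The difference was 0.21 (0.01 to 0.41, edgeR adjusted p = 0.191), and 0.20 without the first siGAR1 library. It was -0.07 on factors from SNORD genes, the class in which the first siGAR1 library stood apart.

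SCARNA9 had the largest difference, 0.47 (-0.03 to 0.97, edgeR adjusted p = 0.242), and it rests on 1 library: the siGAR1 values were 105.3, 97.0 and 197.2. Without siGAR1 replicate 3 the difference was 0.08. Of the other mixed RNAs, SCARNA5 (0.08), SCARNA10 (0.02) and SCARNA12 (0.01) had groups that overlapped. SCARNA12 had 1121, 1148 and 1174 normalized counts in siGAR1, all within the siControl range of 1090 to 1182. SCARNA2 (-0.07), SCARNA7 (-0.01) and SCARNA17 (-0.24) overlapped as well.

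For these comparisons 1.79% of all genes passed lower and 1.63% higher, and groups did not overlap in 14.1% lower and 13.6% higher. The members had 1 of 8 without overlap on the higher side and 0 on the lower. At an unadjusted p under 0.05 there was 1 of 8, SCARNA6 on the higher side, beside 12.2% of all genes lower and 11.8% higher. Median differences were -0.04 for the C/D and 0.05 for the mixed type, 0.09 for the H/ACA scaRNAs and 0.35 for SNORD genes. Without the first siGAR1 library they were 0.03 for the C/D, 0.06 for the mixed type, -0.05 for the H/ACA scaRNAs and 0.05 for SNORD genes, so that the C/D and H/ACA medians changed sign. Without that library SCARNA2 moved from -0.07 to 0.02 and SCARNA7 from -0.01 to 0.05.

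The knockdowns were also compared with each other directly. SCARNA6 had the smallest p, with 597, 653 and 632 normalized counts in siDyskerin and 834, 896 and 752 in siGAR1, a log2 difference of -0.40 (-0.60 to -0.20, edgeR adjusted p = 0.0136). The groups did not overlap, and the value missed the threshold of 0.01 narrowly. It passed in DESeq2 (adjusted p = 0.0018), with no low-count filter (0.0093) and without siGAR1 replicate 3 (0.0078). With each of the other libraries left out it did not pass, up to an adjusted p of 0.0607 without siDyskerin replicate 1 (-0.36) and 0.0626 without siGAR1 replicate 2 (-0.34), and without siGAR1 replicate 1 it was -0.40 (0.0482). On factors from SNORD genes it was 0.15 (adjusted p = 0.655). SCARNA12 differed by -0.27 (-0.44 to -0.09, edgeR adjusted p = 0.0471), SCARNA5 by -0.27 (-0.48 to -0.07, adjusted p = 0.0793) and SCARNA10 by -0.24 (-0.42 to -0.05, adjusted p = 0.0891). SCARNA9 had the largest difference in size, -0.51 (adjusted p = 0.195), but -0.13 without siGAR1 replicate 3. Without the first siGAR1 library SCARNA2 moved from -0.08 to -0.17, SCARNA7 from -0.11 to -0.18 and SCARNA9 to -0.65.

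The mixed type had a median of -0.27 and the C/D type -0.13, and all 8 values were below 0. On factors from SNORD genes all 8 were above 0, where the median of all genes was 0.55. Relative to siControl, the SNORD median itself was 0.75 in the first siGAR1 library, but 0.07 and -0.03 in the other siGAR1 libraries. The SNORD factors were not computed without that first library. Groups did not overlap on the lower side in 4 of 8, beside 14.6% of all genes, and in 0 of 8 on the higher side, beside 15.1%. Of all genes 2.78% passed lower and 2.61% higher, of the members 0 in edgeR and 1 in DESeq2, and 5 of 8 were lower at an unadjusted p under 0.05, beside 12.4% of all genes lower and 13.1% higher. These comparisons share libraries with both others and are no separate evidence.

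Each intronic member was set beside the gene that contains it, since both come from 1 precursor. SCARNA5 and SCARNA6 lie in introns 9 and 12 of 17 of ATG16L1, an autophagy gene, 1565 and 913 bases before the next exon. SCARNA10 lies in intron 4 of 31 of NCAPD2, a condensin subunit, 77 bases before the next exon, and SCARNA12 in intron 6 of 9 of PHB2, a prohibitin, 88 bases before it. SCARNA7 lies in intron 12 of 16 of KPNA4, an importin, 725 bases before the next exon, and SCARNA9 in intron 19 of 29 of CEP295, a centriole gene, 88 bases before it.

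Of these and the other containing genes, 7 in all, 0 passed in any comparison, with at most 1 at an unadjusted p under 0.05. After dyskerin knockdown NCAPD2 was at -0.21 (edgeR adjusted p = 0.0378), close to its SCARNA10 at -0.22. PHB2 was at -0.11 while SCARNA12 was at -0.25. ATG16L1 was at 0.09 while SCARNA5 and SCARNA6 were both at -0.19. KPNA4 was at -0.01 and CEP295 at 0.10. SCARNA2 and its lncRNA, which overlap almost fully and had nearly equal reads, were both at -0.15, and SNHG22 was at -0.18.

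The member's log2 ratio to its containing gene, with transcripts that overlap the member left out, was lower than in siControl by 0.28 for both SCARNA5 and SCARNA6 (-0.28 each), by 0.15 for SCARNA12 (-0.15), by 0.12 for SCARNA7 (-0.12) and by 0.02 for SCARNA10 (-0.02) after dyskerin knockdown. For SCARNA9 it differed by -0.17, less than the SD of 0.38 among the siControl libraries. The SD was 0.13 among the siDyskerin libraries for SCARNA7 and 0.13 among the siControl libraries for SCARNA12. The siControl and siDyskerin ratios overlapped for SCARNA7, SCARNA10 and SCARNA12. For SCARNA6 the ratio was -3.46, -3.55 and -3.34 in siControl, -3.85, -3.72 and -3.61 in siDyskerin and -3.32, -3.10 and -3.30 in siGAR1. The siDyskerin values lay below all siControl values and the siGAR1 values above. A ratio within a library does not depend on the library factor. No such ratio was tested.

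**Figure D5:**
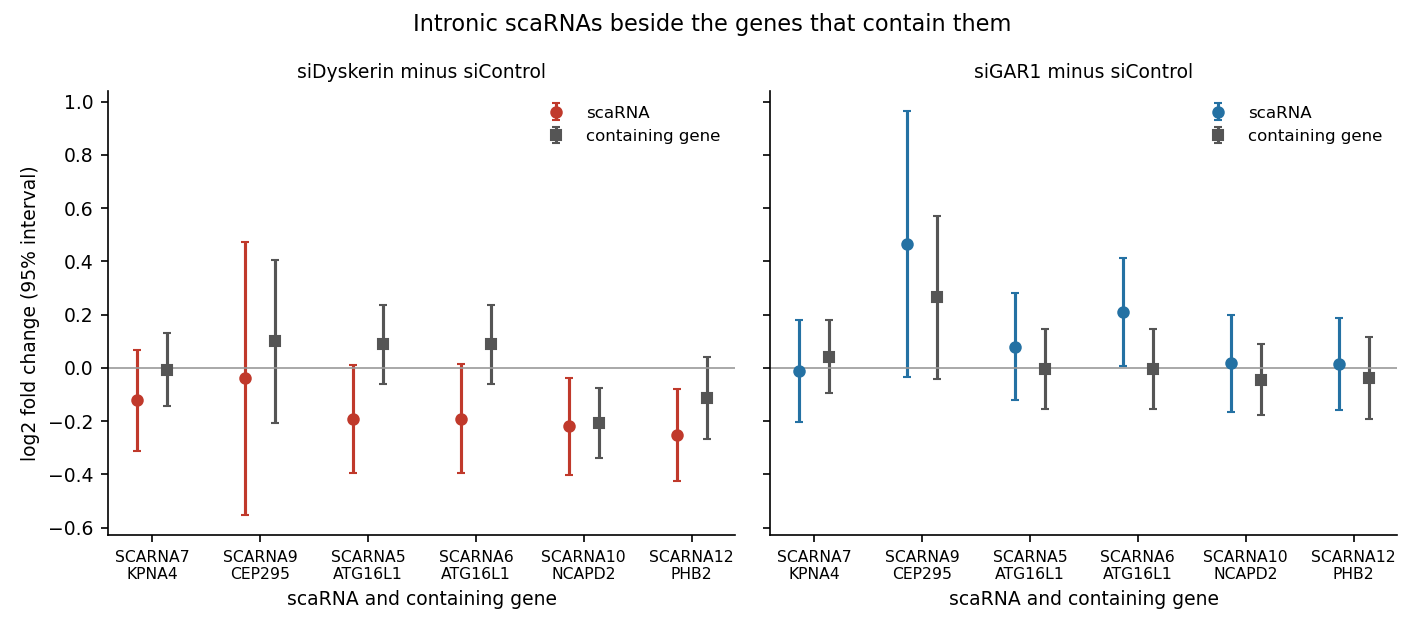
log2 fold change with 95% interval (y axis) of each of the 6 intronic scaRNAs (circles) and of the gene that contains it (grey squares), after dyskerin (left) and GAR1 (right) knockdown; SCARNA2 and SCARNA17, which lie in exons of lncRNAs, are left out. ATG16L1 (0.09) lies above SCARNA5 and SCARNA6 (-0.19 each) on the left, while NCAPD2 (-0.21) and SCARNA10 (-0.22) lie side by side; factors from SNORD genes raise all of them together.

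The proteins that build C/D and Cajal body particles were read from lists. Of 12 box C/D core and assembly proteins, 2 passed lower after dyskerin knockdown, where 3.32% of all genes did: PIH1D1, a subunit of the R2TP assembly chaperone, at -0.54 (edgeR adjusted p = 0.0010), and RUVBL1, an ATPase of the same complex, at -0.31 (adjusted p = 0.0081). None of the 12 passed after GAR1 knockdown in edgeR, with 2 lower and 2 higher at an unadjusted p under 0.05 (12.2% and 11.8% of all genes), and PIH1D1 was at -0.39 (adjusted p = 0.0146). After dyskerin knockdown 8 of the 12 were below 0 and 4 above 0. At an unadjusted p under 0.05, 4 were lower and 1 higher, beside 13.1% and 13% of all genes. The core proteins FBL, the methyltransferase, NOP58, a scaffold, and SNU13 were at -0.05, 0.14 and 0.04 after dyskerin knockdown. NOP56, the other core protein, was at -0.13 (edgeR adjusted p = 0.115). Its groups did not overlap, beside 15.5% of all genes on the lower side. ZNHIT6 of the same list was at 0.19 after dyskerin knockdown and at 0.27 after GAR1 knockdown, without passing in either. Of 20 proteins of Cajal bodies and scaRNA maturation, 2 passed lower after dyskerin knockdown, TOE1, a deadenylase that trims snRNA and scaRNA ends, at -0.42 (adjusted p = 0.0008) and SNAPC1, a subunit of the snRNA promoter factor, at -0.40 (adjusted p = 0.0052), and 0 passed after GAR1 knockdown in edgeR, with 2 lower and 2 higher at an unadjusted p under 0.05. WRAP53, which brings scaRNAs to Cajal bodies, was at -0.29 (adjusted p = 0.0815), and COIL, the scaffold coilin, was at -0.18 (adjusted p = 0.196). In the other direction, PHAX of the same list was at 0.27 (edgeR adjusted p = 0.0603), and at 0.22 after GAR1 knockdown. Of the 20, 11 were below 0 and 9 above 0 after dyskerin knockdown. INTS11 was at -0.26 (edgeR adjusted p = 0.0317) after dyskerin knockdown and at 0.01 after GAR1 knockdown. NCBP2 was at -0.27 (edgeR adjusted p = 0.0178) after GAR1 knockdown and at 0.04 after dyskerin knockdown. Between the knockdowns NCBP2 passed higher (0.30, edgeR adjusted p = 0.0066). In that comparison 1 of the 20 passed lower and 1 higher, beside 2.78% and 2.61% of all genes. Of 6 H/ACA core and assembly proteins only the silenced gene passed in each knockdown.

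Spliceosomal snRNAs, the class that scaRNAs guide, were measured in 8 of 13 listed genes. After dyskerin knockdown their median was -0.11 and 0 passed, with 0 at an unadjusted p under 0.05. After GAR1 knockdown all 8 were above 0 with a median of 0.66 and 6 at an unadjusted p under 0.05, beside 11.8% of all genes higher, but 0 passed, and the first siGAR1 library was highest in all 8. Without that library 7 of 8 were above 0 with a median of 0.32, and on factors from SNORD genes 7 of 8 were above 0 with a median of 0.27. RNU4-2, a U4 snRNA, had 1478, 1587 and 2149 normalized counts in siControl and 3887, 2214 and 2946 in siGAR1. Among 7 other abundant short noncoding RNAs 0 passed in either knockdown.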

How the data were processed

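RNA-seq of nuclear RNA from 9 libraries (3 groups of 3) was analysed. Per the labels and the study's methods, the authors trimmed reads, removed rRNA and tRNA reads with Bowtie2 2.4.1 and quantified transcripts with Salmon 1.2.0 against GENCODE 27 on GRCh38; the tables deposited by the authors give estimated counts, TPM and effective lengths per transcript. Of 200401 transcripts, 195887 (97.7%) matched GENCODE 44 by identifier. The unmatched 4514 transcripts (3.69 to 3.84% of reads) were left out. Estimated counts were rounded and summed per gene. TMM factors, filterByExpr and a robust quasi-likelihood F-test (edgeR 4.0.16, limma 3.58.1, R 4.3.3) were fitted to all libraries without covariates, with Benjamini-Hochberg adjustment over 18444 genes. A gene passed at adjusted p under 0.01 and was called at a log2 change above 1 in size. Deposited TPM was used for levels per length. Boxes were searched with Python 3.11.15 and near copies (at least 40 bases at 90% identity) with BLAST 2.17.0. Alternatives included DESeq2 1.42.0, other factors, lengthScaledTPM counts and each library left out. The genes named are the members, targets, containing genes and up to 4 per list by smallest p. FBL, NOP56, SNU13, WRAP53, COIL and the snRNA named were added for their role after the values were seen. PHAX was also added after the values were seen, as a gene of its list that was higher. Scripts were tested on simulated data. The members and gene lists were chosen with earlier results of these data known. Depth limits SCARNA9 and SCARNA17 most.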

Additional observations from a re-analysis of the deposited data

Results flagged for a closer look

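For SCARNA6, a mixed scaRNA, all 3 siDyskerin libraries lay below all siControl libraries and all 3 siGAR1 libraries above them. The log2 differences from siControl were -0.19 (siDyskerin) and 0.21 (siGAR1), and neither passed an adjusted p under 0.01. The difference between the knockdowns itself, tested in the same edgeR fit, was -0.40 (adjusted p = 0.0136), so it was not past the threshold either. On factors from SNORD genes, the class in which the first siGAR1 library stood apart, the signs of both differences changed, to 0.07 and -0.07.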

How the results depend on the processing

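With library factors from SNORD genes, which shift the median of all genes by 0.26 after dyskerin knockdown, by -0.29 after GAR1 knockdown and by 0.55 between the knockdowns, many differences changed sign. After dyskerin knockdown SCARNA2 was 0.12, SCARNA7 0.13, SCARNA9 0.23, SCARNA5 0.070, SCARNA6 0.073, SCARNA10 0.045 and SCARNA12 0.0020. After GAR1 knockdown SCARNA5 was -0.21, SCARNA6 -0.073, SCARNA10 -0.24, SCARNA12 -0.26 and DKC1 -0.11. Between the knockdowns SCARNA2 was 0.44, SCARNA7 0.41, SCARNA9 0.0041, SCARNA17 0.45, SCARNA5 0.28, SCARNA6 0.15, SCARNA10 0.29 and SCARNA12 0.27. None of these passed. The SNORD median, relative to siControl, was 0.75 in the first siGAR1 library but 0.07 and -0.03 in the other siGAR1 libraries. After GAR1 knockdown, SCARNA12 was -0.0012 with no low-count filter, and SCARNA7 was 0.017 and SCARNA10 -0.082 with lengthScaledTPM counts.

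Genes called numbered 173 after dyskerin knockdown, 52 after GAR1 knockdown and 133 between the knockdowns. They were 31 (GAR1) and 481 (between) with SNORD factors, 347, 154 and 282 with no low-count filter, and 34 (GAR1) with lengthScaledTPM counts. Of the members, 1 (SCARNA6) passed between the knockdowns with DESeq2 and 1 with no low-count filter, against 0 under the other alternatives that kept all libraries.

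With 1 library left out, genes called ranged from 127 to 194 after dyskerin knockdown, from 34 (without siGAR1 replicate 2) to 55 after GAR1 knockdown, and from 81 (without siGAR1 replicate 1; 87 without siDyskerin replicate 1) to 153 between the knockdowns. Members past the threshold ranged from 0 to 1, the 1 being SCARNA6 between the knockdowns without siGAR1 replicate 3. SCARNA9 after dyskerin knockdown ranged from -0.10 to 0.030. After GAR1 knockdown SCARNA2 ranged from -0.13 to 0.015, SCARNA7 from -0.097 to 0.050, SCARNA10 from -0.066 to 0.076 and SCARNA12 from -0.020 to 0.034. In a group left with 2 libraries the spread is shared with the other groups.

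Correlations of same-number pairs were small, with 1 of 9 over 0.1 (range -0.07 to 0.10). Yet 7 of 9 libraries correlated best with their own number, so these values do not settle whether replicate numbers pair the libraries. The fit with the replicate block called 176, 48 and 128 genes, with 0 members past the threshold in each comparison. Of 477 values of the members under the alternatives, 445 kept their sign and their side of the threshold. The causes of these shifts were not tested. Depth limits SCARNA17 and SCARNA9, and overlapping transcripts limit SCARNA2, SCARNA10, SCARNA12 and SCARNA17. SCARNA9, annotated as a lncRNA, has no value where only scaRNA or snoRNA transcripts were counted.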
